A study of Mus musculus with 7 samples.

Results

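The genes described here are 10 genes of receptor rearrangement and of immature thymocytes: Rag1, Rag2, Dntt, Ptcra, Cd24a, Arpp21, Themis, Endou, Rmnd5a and Cd1d1. They are a list of names, out of 18193 genes that had a probe set with exactly 1 gene symbol. All 10 had such a probe set, and together they had 24. The study used 7 single-colour Affymetrix Mouse Genome 430 2.0 arrays of mouse thymocytes in 3 groups. The first group was stage 1 NKT cells of Valpha14 TCR transgenic mice with intact PLZF (2 arrays), and the second was stage 1 NKT cells of PLZF-deficient Luxoid mutants that carried the same Valpha14 transgene (3 arrays). The third was CD4SP thymocytes (CD4+ CD8-) of wildtype mice (2 arrays). All mice were on a C57BL/6J background and 4 to 6 weeks old, and each array held RNA of pooled mice. Stage 1 NKT cells were sorted as CD1d tetramer+, CD24low, CD44- and NK1.1-. In the labels of the CD4SP samples 1 field repeats the sort of the NKT cells. It was set aside, since title, source name and description each say CD4SP. The promoter that drives the transgene is not given in the sources used here. Because both NKT groups carry a rearranged Valpha14 receptor gene and the CD4SP mice do not, cell type and transgene cannot be told apart in any comparison with CD4SP. The CD24low sort of the NKT cells cannot be told apart from them there either, for Cd24a or for any other gene.

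Developing T cells assemble their receptor genes in the thymus. RAG1 and RAG2 cut the gene segments, end-joining proteins rejoin them, and terminal transferase, the product of Dntt, adds untemplated nucleotides at the joints. The pre-TCR alpha chain, encoded by Ptcra, pairs with a finished beta chain at the double-negative stage, and Rag expression returns at the double-positive stage when the alpha chain is assembled. NKT cells descend from double-positive thymocytes that are selected on CD1d displayed by other double-positive thymocytes. CD24 is dense on immature thymocytes and is lost as they mature, so a low CD24 stain separates later NKT cells from their earliest precursors.

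The stretches upstream of the start sites of the rearrangement and pre-TCR genes are shown so that Dntt can be set beside Rag1, Rag2 and Ptcra. Of these genes only Dntt was bright enough to be tested. Rag1, Rag2 and Ptcra did not rise above background, so no difference between groups, or lack of one, is read for them. Each stretch is the 250 bases before the start site, 5′ to 3′ on the gene's strand, from RefSeq on GRCm38.p6. Capitals mark CANNTG, the E-box letters that E proteins can bind, and GGGAA, letters at the core of sites that Ikaros proteins can bind, searched on both strands (GGGAA also as TTCCC). The Rag1 stretch is chr2:101649533-101649782 on the minus strand, and the Rag2 stretch is chr2:101624462-101624711 on the plus strand. The Dntt stretch is chr19:41029025-41029274 on the plus strand, and the Ptcra stretch is chr17:46763713-46763962 on the minus strand.
Rag1: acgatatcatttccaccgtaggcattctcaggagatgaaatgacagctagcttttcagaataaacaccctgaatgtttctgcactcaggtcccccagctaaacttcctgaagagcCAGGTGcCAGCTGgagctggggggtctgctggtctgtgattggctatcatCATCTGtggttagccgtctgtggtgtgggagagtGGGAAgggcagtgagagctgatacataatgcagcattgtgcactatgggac
Rag2: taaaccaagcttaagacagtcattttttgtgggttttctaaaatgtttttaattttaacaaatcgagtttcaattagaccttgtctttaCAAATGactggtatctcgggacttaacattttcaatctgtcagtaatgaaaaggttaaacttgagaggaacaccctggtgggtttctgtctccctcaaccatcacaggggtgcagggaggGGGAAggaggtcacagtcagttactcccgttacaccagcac
Dntt: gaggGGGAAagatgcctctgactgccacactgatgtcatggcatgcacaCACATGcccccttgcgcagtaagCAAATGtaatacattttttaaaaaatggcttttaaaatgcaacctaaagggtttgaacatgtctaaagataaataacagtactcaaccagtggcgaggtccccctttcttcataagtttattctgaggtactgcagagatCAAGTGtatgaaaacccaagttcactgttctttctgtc
Ptcra: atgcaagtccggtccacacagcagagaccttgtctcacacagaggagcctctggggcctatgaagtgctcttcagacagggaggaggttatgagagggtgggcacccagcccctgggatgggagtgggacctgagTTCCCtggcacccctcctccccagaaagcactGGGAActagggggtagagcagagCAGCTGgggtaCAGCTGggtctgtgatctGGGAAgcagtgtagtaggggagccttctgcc
CANNTG occurred 3 times in the Rag1 stretch, 1 time in that of Rag2, 3 times in that of Dntt and 2 times in that of Ptcra. GGGAA occurred 1 time each for Rag1, Rag2 and Dntt and 3 times for Ptcra. Among 32851 promoter stretches of the same length, 66.2% held CANNTG at least 1 time and 12.2% held it 3 or more times, while 56.2% held GGGAA and 5.88% held it 3 or more times. The matches are a description of the letters and not of bound sites, and their part in the levels of these genes was not tested. Of the 10 genes, 7 were in the promoter table. Cd24a, Endou and Cd1d1 were not.

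Deposited values were linear intensities from 3.08 to 20875, with array medians of 79.6 to 83.7. The 50th percentile of all values, 82.0, served as the level under which a probe set counts as near background, and the number of arrays limits the precision. Genes at 82.0 or above in 2 or more arrays were tested with limma on log2 values, 10874 genes in all, and a gene was called at a Benjamini-Hochberg adjusted p under 0.05. When all arrays of the group with the lower mean read under 82.0, a fold is given as at least the brighter mean over 82.0. No fold is given where both groups lay under it. Levels are compared between groups for 1 probe set at a time, never between genes, apart from the summed levels of cell type markers. Zbtb16, which encodes PLZF, read 2751 and 3488 in stage 1 NKT, 1857, 2774 and 2645 in Luxoid stage 1 NKT and 87.3 and 61.8 in CD4SP, so its transcript was still measured in the mutants and does not check their genotype.

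By their main probe set, the one of highest mean, 5 of the 10 genes passed the filter (Dntt, Cd24a, Themis, Rmnd5a and Cd1d1). The other 5 (Rag1, Rag2, Ptcra, Arpp21 and Endou) lay under 82.0 in all 7 arrays and were not tested. Dntt and Cd24a were lower in both NKT groups than in CD4SP, Themis, Rmnd5a and Cd1d1 passed the test in no comparison, and no member passed it between Luxoid and PLZF-sufficient stage 1 NKT.

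**Figure D1:**
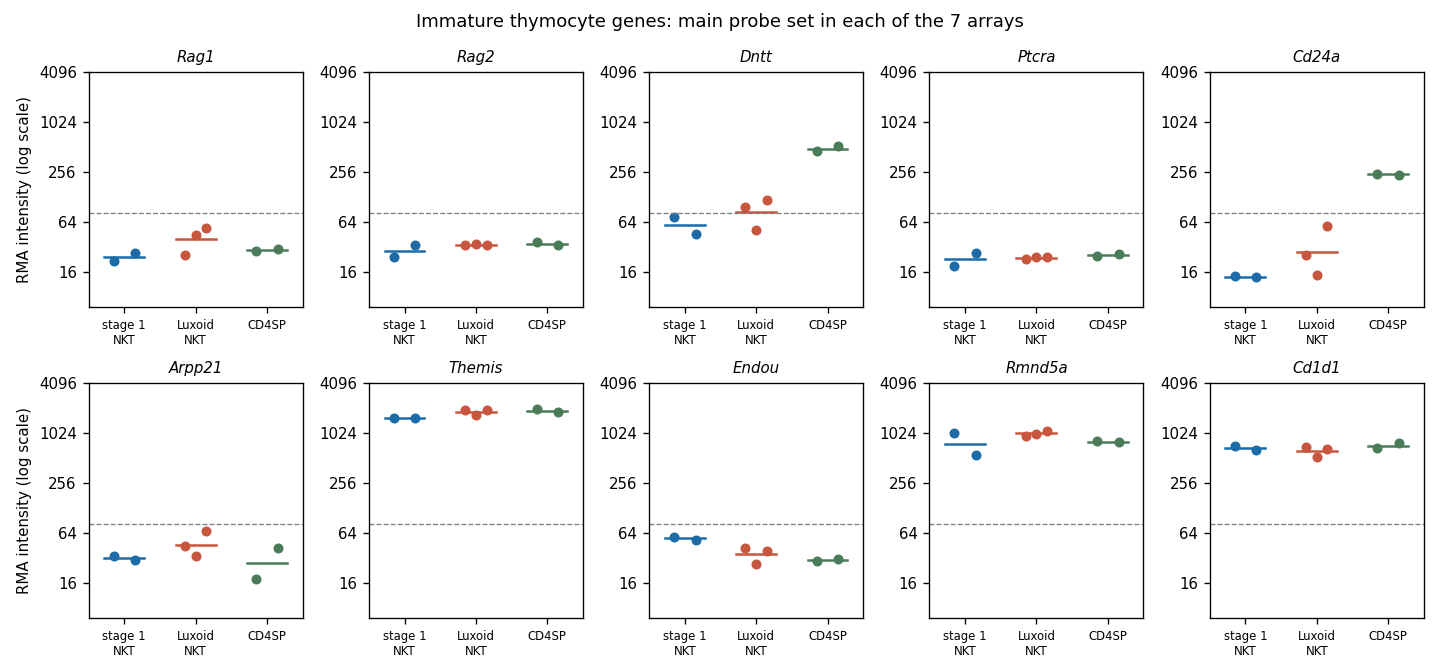
Intensity of the main probe set of each of the 10 genes (y axis, RMA intensity on a log scale) in each array (points) of the 3 groups (x axis), with a bar at the geometric mean of each group and a dashed line at 82.0. Dntt (461 and 527) and Cd24a (239 and 246) stand above the line in CD4SP, and Rag1, Rag2, Ptcra, Arpp21 and Endou stay under it in all 7 arrays.

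The recombinase genes were near background in all 3 groups. Rag1, which encodes the subunit that cuts DNA at the recombination signals, read 21.7 and 27.0 in stage 1 NKT, 26.1, 45.2 and 54.1 in Luxoid stage 1 NKT and 28.7 and 30.0 in CD4SP. Luxoid arrays 2 and 3 were the highest of the 7, but Luxoid array 1 lay among the stage 1 NKT values, so the 2 NKT groups overlapped. Rag2, its partner subunit, read 24.2 and 33.6 in stage 1 NKT, 33.5, 35.2 and 33.5 in Luxoid stage 1 NKT and 37.1 and 33.6 in CD4SP. All Rag2 values except stage 1 NKT array 1 fell between 33.5 and 37.1. Rag1 and Rag2 lie on chromosome 2 on opposite strands, and each had 1 probe set. In whole-population RNA, fewer cells that express a gene and less of its RNA per cell cannot be told apart, here or for any gene that follows.

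Ptcra, which encodes the chain that stands in for TCR alpha in the pre-TCR, was also near background. Its probe set read 19.0 and 27.2 in stage 1 NKT, 23.3, 24.6 and 24.1 in Luxoid stage 1 NKT and 24.7 and 26.7 in CD4SP. The 2 stage 1 NKT arrays were the lowest and the highest of the 7.

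Dntt, the terminal transferase gene on chromosome 19, was the rearrangement gene that stood above background, and it did so mainly in CD4SP. Probe set 1449757_x_at read 461 and 527 in CD4SP, 98.0, 51.2 and 120 in Luxoid stage 1 NKT and 73.7 and 46.4 in stage 1 NKT. Both CD4SP arrays were above every NKT array, and the 2 NKT groups overlapped. Of all genes tested, 60.2% did not overlap between stage 1 NKT and CD4SP, and 46.0% did not between Luxoid stage 1 NKT and CD4SP. The geometric means were 493, 84.4 and 58.5 in that order. Stage 1 NKT was lower than CD4SP by a log2 difference of -3.08 ± 0.38 (SE; 95% interval -3.94 to -2.21; limma adjusted p = 0.00121), at least 6.01-fold, with all arrays of stage 1 NKT under 82.0. Luxoid stage 1 NKT was lower than CD4SP by a log2 difference of -2.55 ± 0.35 (95% interval -3.34 to -1.76; limma adjusted p = 0.00151), 5.84-fold. Both comparisons use the same 2 CD4SP arrays, and in both the NKT cells had been sorted as CD24low. The part of that sort in the Dntt difference was not tested. Luxoid against PLZF-sufficient stage 1 NKT gave a log2 difference of 0.53 ± 0.35 (95% interval -0.26 to 1.32; limma adjusted p = 0.637), so CD4SP comes first in the order of levels and the 2 NKT groups did not differ beyond their spread.

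The other 2 Dntt probe sets had the same order of group means. Probe set 1420166_at, without the suffix that marks probes shared with similar sequences, read 322 and 389 in CD4SP, 91.6, 51.0 and 81.0 in Luxoid stage 1 NKT and 57.5 and 29.2 in stage 1 NKT. Probe set 1450545_a_at read 188 and 216 in CD4SP, 108, 81.3 and 84.0 in Luxoid stage 1 NKT and 79.2 and 81.3 in stage 1 NKT. In both, every CD4SP array lay above every NKT array. Their log2 differences of stage 1 NKT from CD4SP were -3.11 ± 0.37 and -1.33 ± 0.18, and those of Luxoid stage 1 NKT were -2.29 ± 0.33 and -1.16 ± 0.16. Probe set 1450545_a_at thus gave the smallest difference of the 3, with its NKT values at the background level.

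Cd24a, which encodes the CD24 glycoprotein, showed the same order, but the NKT cells had been sorted as CD24low, so its difference from CD4SP is a description of the sort and supports nothing further. Probe set 1416034_at read 246 and 239 in CD4SP, 26.0, 14.9 and 57.1 in Luxoid stage 1 NKT and 14.2 and 14.1 in stage 1 NKT. All 5 NKT arrays lay under 82.0, and Cd24a entered the test only through its CD4SP arrays, where it is high. The log2 difference from CD4SP was -4.10 ± 0.49 for stage 1 NKT (95% interval -5.22 to -2.98; limma adjusted p = 0.00102) and -3.11 ± 0.45 for Luxoid stage 1 NKT (95% interval -4.13 to -2.09; limma adjusted p = 0.00203). Each is at least a 2.96-fold difference by the background level. With 32 added to the intensities before log2, the differences shrank to -2.57 and -2.14.

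Within the CD24low gate, Cd24a was not equally low in the 3 Luxoid arrays. Luxoid array 3 read 57.1 and array 1 read 26.0, while array 2, at 14.9, was close to the stage 1 NKT values of 14.2 and 14.1. The 2 NKT groups did not overlap, with a log2 difference of 0.99 ± 0.45 (95% interval -0.03 to 2.02; limma adjusted p = 0.449), all of it under 82.0. Groups failed to overlap in this comparison in 26.7% of the genes tested. Probe set 1448182_a_at read 174 and 145 in CD4SP, 21.3, 9.32 and 21.1 in Luxoid stage 1 NKT and 9.42 and 9.08 in stage 1 NKT. Probe set 1437502_x_at read 174 and 179 in CD4SP, 30.6, 9.58 and 14.6 in Luxoid stage 1 NKT and 8.38 and 7.81 in stage 1 NKT. In each of the 3 probe sets Luxoid array 2 was the lowest Luxoid array. Dntt had the same lowest Luxoid array in its 3 probe sets. Of the double-positive thymocyte markers, Cd8b1 also had it (83.4, 43.8 and 123 in the Luxoid arrays), while Cd8a (144, 184 and 152) and Mns1 (781, 798 and 684) were highest in array 2, and Ccr9 (3772, 3631 and 3213) was lowest in array 3. Their part in these values was not tested.

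Cd1d1, on chromosome 3, encodes the molecule that presents lipid antigens to NKT cells. Probe set 1449130_at read 722 and 638 in stage 1 NKT, 701, 535 and 663 in Luxoid stage 1 NKT and 681 and 771 in CD4SP. The 3 groups overlapped. Its log2 difference was -0.09 ± 0.18 for stage 1 NKT against CD4SP (95% interval -0.50 to 0.31; limma adjusted p = 0.762) and -0.20 ± 0.16 for Luxoid stage 1 NKT against CD4SP (95% interval -0.57 to 0.17; limma adjusted p = 0.451). Between the NKT groups it was -0.11 ± 0.16 (95% interval -0.48 to 0.26; limma adjusted p = 0.870). The intervals leave room for changes of either sign. A further probe set, 1449131_s_at, whose suffix marks probes shared with other transcripts, read 461 and 344, then 442, 309 and 376, then 403 and 400 in the same order of groups, again with overlap. Cd1d1 has a close paralog, Cd1d2, and probes may be shared between them.

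Themis encodes a T lineage signalling protein needed for positive selection. Its probe set 1442022_at read 1541 and 1562 in stage 1 NKT, 1925, 1699 and 1946 in Luxoid stage 1 NKT and 1978 and 1843 in CD4SP. The 2 stage 1 NKT arrays were the lowest of the 7, while the Luxoid and CD4SP values overlapped. The log2 difference of stage 1 NKT from CD4SP was -0.30 ± 0.15 (95% interval -0.63 to 0.03; limma adjusted p = 0.214), and that of Luxoid from PLZF-sufficient stage 1 NKT was 0.26 ± 0.13 (95% interval -0.05 to 0.56; limma adjusted p = 0.523). Luxoid stage 1 NKT against CD4SP gave -0.04 ± 0.13 (95% interval -0.35 to 0.26; limma adjusted p = 0.867). None passed the test, and groups that do not overlap were found in 60.2% of all genes tested in the comparison of stage 1 NKT with CD4SP. Between the NKT groups that share was 26.7%.

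The 4 Themis probe sets did not rank the groups alike. Probe set 1436423_at read 1091 and 987 in stage 1 NKT, 1305, 1278 and 915 in Luxoid stage 1 NKT and 1396 and 1294 in CD4SP, with CD4SP highest on average. Probe set 1439719_at read 494 and 445, 563, 552 and 541, and 390 and 428 in the same groups, so here CD4SP was lowest. Its log2 difference of Luxoid stage 1 NKT from CD4SP was 0.43 ± 0.12 (limma adjusted p = 0.0880 over every probe set), against -0.04, -0.22 and -0.55 for the other 3. The fourth, 1443192_at, read 57.5 to 134 and was under 82.0 in 2 of the 5 NKT arrays. No direction is therefore given for Themis as a gene.

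Rmnd5a, on chromosome 6, encodes a RING subunit of the CTLH ubiquitin ligase. Probe set 1431068_at read 1037 and 561 in stage 1 NKT, 956, 1001 and 1090 in Luxoid stage 1 NKT and 812 and 793 in CD4SP. Stage 1 NKT array 2 was the lowest of the 7 and array 1 the second highest, so the spread within that group covered the CD4SP values. The Luxoid arrays were all above the CD4SP arrays, as groups did not overlap in 46.0% of all genes tested in that comparison. The log2 differences were -0.07 ± 0.26 for stage 1 NKT against CD4SP (95% interval -0.66 to 0.52; limma adjusted p = 0.877) and 0.34 ± 0.23 for Luxoid stage 1 NKT against CD4SP (95% interval -0.20 to 0.88; limma adjusted p = 0.383). Luxoid against PLZF-sufficient stage 1 NKT gave 0.41 ± 0.23 (95% interval -0.13 to 0.95; limma adjusted p = 0.579), a value that fell to -0.03 without stage 1 NKT array 2. Probe set 1426884_at read 838 and 637, 762, 595 and 671, and 788 and 657 in the same groups, which overlapped throughout.

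Arpp21 encodes an R3H domain phosphoprotein found in immature thymocytes and neurons. Its main probe set, 1451280_at, read 33.5 and 30.0 in stage 1 NKT, 44.2, 33.5 and 67.5 in Luxoid stage 1 NKT and 17.8 and 42.5 in CD4SP. The CD4SP arrays were the lowest of all and the third from the top, so no order of groups can be read from them. The other 4 Arpp21 probe sets read 6.36 to 19.3 in all 7 arrays.

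Endou encodes an endoribonuclease that cuts RNA at uridines. Probe set 1449937_at read 57.3 and 53.4 in stage 1 NKT, 41.8, 26.7 and 39.3 in Luxoid stage 1 NKT and 29.0 and 30.7 in CD4SP. Both stage 1 NKT arrays lay above the other 5, but all 7 were under 82.0 and the gene was not tested. With no intensity filter its log2 difference of stage 1 NKT from CD4SP, 0.89, was called (limma adjusted p = 0.0380), and in the fit over every probe set it was not (0.89 ± 0.22, limma adjusted p = 0.0647). A further probe set, 1449938_at, read 33.6 to 45.0 in all 7 arrays, without separation of the groups. The higher values in stage 1 NKT were thus seen with 1 of the 2 probe sets and at intensities near background.

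The counts can be read against all genes. Stage 1 NKT was lower than CD4SP in 2 of the 5 tested members and higher in 0. Of all genes tested, 14.9% were called in that comparison, 10.8% higher and 4.08% lower. With the replicate number as a block, 2616 genes were called in place of 1621, and the same 2 members. Luxoid array 3, alone in its number, adds nothing to that fit. Luxoid stage 1 NKT was lower than CD4SP in the same 2 genes and higher in 0, where 16.8% of all genes were called, 11.3% higher and 5.51% lower. In Luxoid against PLZF-sufficient stage 1 NKT, limma called 0 of the 5, and 0 had an unadjusted p under 0.05, where 1.55% of all genes were called, 0.901% higher and 0.653% lower. The 5 members passed the filter for different reasons, Cd24a only through CD4SP, so these counts describe the genes and support nothing about the 10 as a set. The median log2 difference of the 5 was -0.30, -0.20 and 0.41 in the 3 comparisons in that order, against 0.06, 0.02 and -0.03 over all genes tested. With 5 genes each median is the value of 1 gene, Themis, Cd1d1 and Rmnd5a in turn. None of these was called, so the medians show no shift of the 5.

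**Figure D2:**
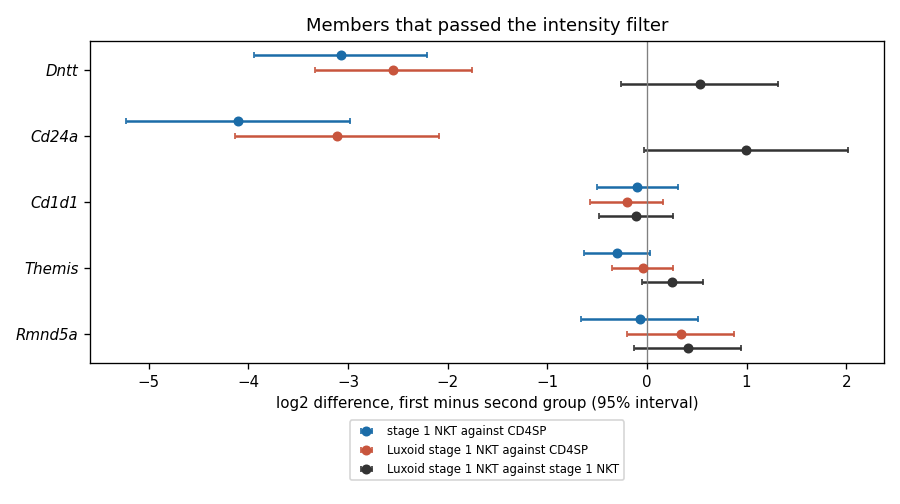
Log2 difference (x axis, points, with 95% intervals as bars) of the 5 members that passed the intensity filter, for the 3 comparisons. The intervals of Dntt and Cd24a against CD4SP lie below 0, from -3.08 and -4.10 for stage 1 NKT, and all other intervals include 0.

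Fitted over every probe set, all 3 probe sets of Dntt and all 3 of Cd24a were called lower in both comparisons with CD4SP, and no other probe set of the 10 genes was called in any comparison. Over all 45037 probe sets, 5.21% were called in stage 1 NKT against CD4SP (1.74% lower), 6.42% in Luxoid stage 1 NKT against CD4SP (2.49% lower) and 0.435% between the NKT groups (0.184% lower in Luxoid). All NKT values of the 3 Cd24a probe sets lay under 82.0, so the sizes of their log2 differences are not measured on both sides.

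**Figure D3:**
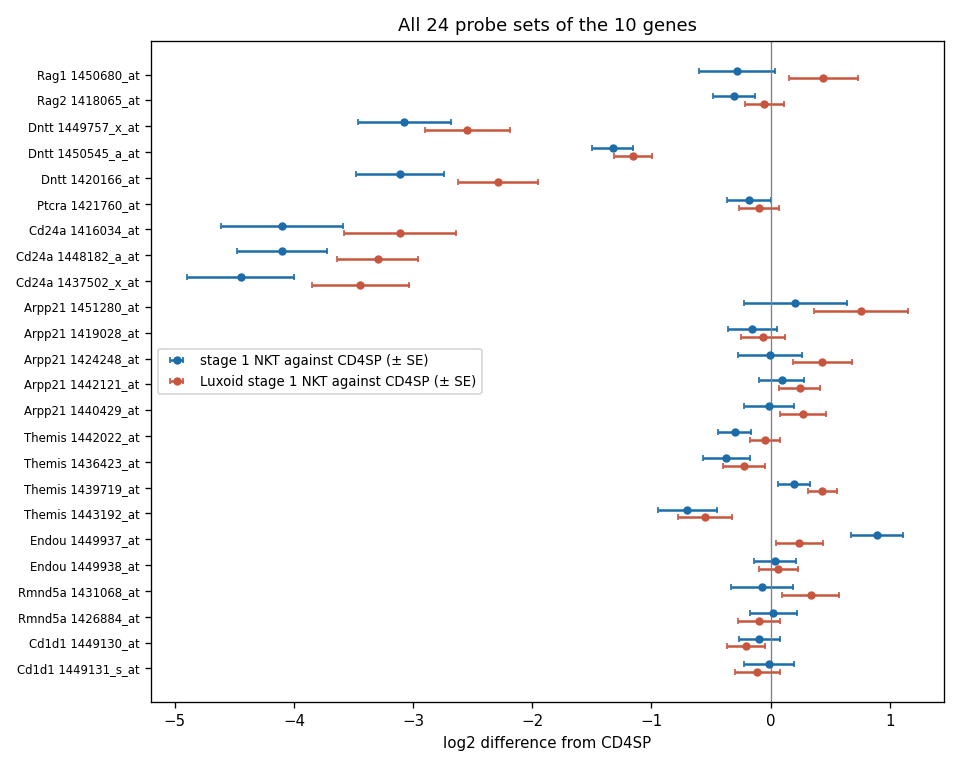
Log2 difference from CD4SP (x axis, points, with the SE as bars) of each of the 24 probe sets (y axis), for stage 1 NKT and Luxoid stage 1 NKT. The 6 probe sets of Dntt and Cd24a lie at -1.16 or below, and those of the other 8 genes lie between -0.70 and 0.89.

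Across the 7 arrays, Dntt and Cd24a followed each other (Pearson r = 0.980 on log2 values). That is a description of 7 points that share the step from CD4SP to the NKT groups. The genes most like Dntt were C920009B18Rik (r = 0.988), Pik3ip1 (0.987), an inhibitor of PI3-kinase, and Med13l (0.980), a subunit of the Mediator kinase module. Pik3ip1 read 531 in stage 1 NKT, 603 in Luxoid stage 1 NKT and 1146 in CD4SP as geometric means. The genes most like Cd24a were Plxnd1 (r = 0.993), a semaphorin receptor of double-positive thymocytes, Gtf3c1 (0.990), a subunit of TFIIIC, and Ppm1b (0.989), a phosphatase. Plxnd1 read 73.0, 86.2 and 165 in the same order of groups. The other 3 tested members varied over less than 1 log2 unit, and the genes most like them are not named.

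The other genes of these pathways were taken from lists of known function, and their counts stand beside the shares of all genes tested. Those were 10.8% higher and 4.08% lower in stage 1 NKT against CD4SP, and 11.3% higher and 5.51% lower in Luxoid stage 1 NKT against CD4SP. The replicate block raised the totals from 1621 to 2616 of 10874 genes in stage 1 NKT and from 1831 to 2299 in Luxoid stage 1 NKT. Counts under the block stand beside those larger totals. Of 10 tested end-joining and recombination partners of Dntt and the Rag genes, stage 1 NKT was higher than CD4SP in 1 and lower in 0, and 3 were higher with the replicate number as a block. Xrcc5, which encodes the Ku80 end-binding protein, was 1.75-fold higher in stage 1 NKT (log2 0.81 ± 0.13, limma adjusted p = 0.00532). Luxoid stage 1 NKT was higher in 2, Xrcc5 (1.44-fold) and Hmgb2 (1.54-fold), a bending protein that aids RAG cutting. Those calls were lost without either CD4SP array for Xrcc5 (limma adjusted p up to 0.114), and for Hmgb2 without CD4SP array 1, without Luxoid array 2 or 3, or over every probe set (up to 0.207). Polm and Poll, polymerases related to terminal transferase, had log2 differences from CD4SP between -0.07 and 0.19 in both NKT groups and passed no test. Median log2 differences of the list were 0.15 for stage 1 NKT and 0.21 for Luxoid stage 1 NKT.

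Among 14 tested factors known to act on Rag or pre-TCR genes, stage 1 NKT was higher than CD4SP in 5 and lower in 1 (10.8% and 4.08% of all genes), and Luxoid stage 1 NKT was higher in 5 and lower in 2 (11.3% and 5.51% of all genes). With the replicate block, 2 were lower in stage 1 NKT. Id2, an inhibitor of the E proteins that bind CANNTG, read 3708 and 3660 in stage 1 NKT, 2479, 2292 and 1900 in Luxoid stage 1 NKT and 429 and 484 in CD4SP. The groups did not overlap, as in 26.7% to 60.2% of all genes tested, depending on the comparison. Id2 was 8.09-fold higher in stage 1 NKT (log2 3.02 ± 0.17, limma adjusted p = 2.14e-05) and 4.85-fold higher in Luxoid stage 1 NKT (log2 2.28 ± 0.15, limma adjusted p = 3.52e-05). Satb1, a chromatin organiser that acts on the Rag locus, was 2.05-fold lower in stage 1 NKT (limma adjusted p = 0.00321) and 2.26-fold lower in Luxoid stage 1 NKT (0.000784). Myb, which activates Rag genes, was 2.12-fold higher in stage 1 NKT (0.00917) and 3.13-fold higher in Luxoid stage 1 NKT (0.000564). The Myb call in stage 1 NKT was lost without stage 1 NKT array 1 or CD4SP array 2 (limma adjusted p up to 0.0758). Gfi1, a zinc finger repressor, was 1.83-fold higher in stage 1 NKT (limma adjusted p = 0.0111) and 2.57-fold higher in Luxoid stage 1 NKT (0.000632), and Gata3, a factor of the T lineage, was 2.02-fold higher in stage 1 NKT (0.00834). The calls in stage 1 NKT were lost without stage 1 NKT array 1 for both, without CD4SP array 1 for Gfi1 and without CD4SP array 2 for Gata3 (up to 0.0951 and 0.0780). Named after their values were seen, because of the motifs above, the E protein genes Tcf3 and Tcf12 and the Ikaros gene Ikzf1 passed no test, with log2 differences from CD4SP of -0.05, 0.07 and -0.13 in stage 1 NKT. No gene of the list was called between the NKT groups by limma, where 4 had an unadjusted p under 0.05, and the counts in single alternatives went from 1 to 5 higher in stage 1 NKT.

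Of 9 tested genes of double-negative thymocytes, 1 was lower than CD4SP in stage 1 NKT and 2 in Luxoid stage 1 NKT (4.08% and 5.51% of all genes). In both NKT groups 2 were higher (10.8% and 11.3% of all genes). The 2 higher genes lay under 82.0 in the CD4SP arrays and entered the test only through the NKT groups, where they are high. Hhex, a homeobox gene of early lymphoid progenitors, read 310 and 246 in stage 1 NKT, 408, 419 and 491 in Luxoid stage 1 NKT and 30.3 and 10.2 in CD4SP, at least 3.37-fold and at least 5.34-fold higher (limma adjusted p = 0.000470 and 9.93e-05). Lmo2, a partner of bHLH factors in progenitors, was at least 4.21-fold and at least 3.13-fold higher (9.33e-05 and 0.000106). Il2ra, the CD25 chain of the IL-2 receptor, was at least 2.02-fold lower in Luxoid stage 1 NKT (limma adjusted p = 0.00107). Dtx1, a regulator of Notch signalling, was 1.54-fold and 1.65-fold lower (limma adjusted p = 0.0367 and 0.0126), the latter lost without CD4SP array 2 (0.110) and the former in 6 of 19 alternatives, among them without either stage 1 NKT array, without Luxoid array 1 and without either CD4SP array (up to 0.193). The other 6 listed genes lay too low to be tested, as Ptcra did. With the replicate block, 2 of the 9 were lower in stage 1 NKT in place of 1.

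Genes of double-positive thymocytes went both ways. Of 12 tested, stage 1 NKT was lower than CD4SP in 6 and higher in 1 (4.08% and 10.8% of all genes). Luxoid stage 1 NKT was lower in 4 and higher in 3 (5.51% and 11.3% of all genes), with 5 lower under the replicate block. Ccr9, a chemokine receptor of cortical thymocytes, was 3.40-fold and 3.46-fold higher (limma adjusted p = 0.000477 and 0.000224), the opposite direction to Dntt. Plxnd1 was lower, at least 2.01-fold in stage 1 NKT (0.00372) and 1.92-fold in Luxoid stage 1 NKT (0.00575, and 0.0532 without CD4SP array 2). Cd4, the coreceptor by which the CD4SP cells were sorted, was 3.06-fold and 2.82-fold lower. Cd8b1 read 61.9 and 67.6 in stage 1 NKT, 83.4, 43.8 and 123 in Luxoid stage 1 NKT and 223 and 268 in CD4SP, at least 2.98-fold lower in stage 1 NKT (limma adjusted p = 0.0136) and 3.19-fold lower in Luxoid stage 1 NKT (0.0145). Those calls were lost without either CD4SP array, and in stage 1 NKT also without either of its own arrays (up to 0.123). Between the NKT groups Cd8a and Cd2 were called higher in Luxoid (1.81-fold and 1.62-fold, limma adjusted p = 0.0342 and 0.0484), calls that were lost in 9 of 18 and 10 of 19 alternatives, for Cd2 without any 1 of the 7 arrays and for Cd8a without any 1 of them but Luxoid array 1 (up to 0.309 and 0.283).

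**Figure D4:**
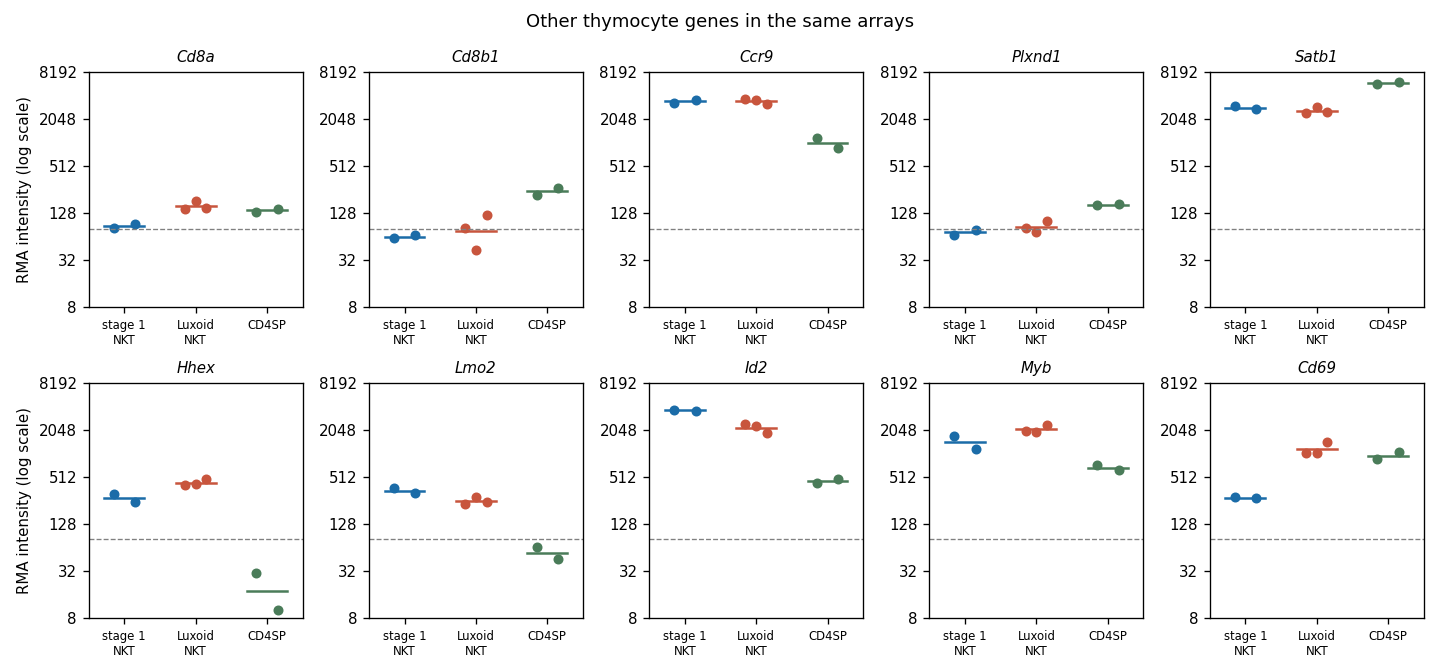
Intensity (y axis, RMA intensity on a log scale) of 10 other thymocyte genes in each array (points) of the 3 groups (x axis), with a bar at the geometric mean of each group and a dashed line at 82.0. Plxnd1, Satb1 and Cd8b1 are highest in CD4SP as Dntt is, and Ccr9, Hhex, Lmo2, Id2 and Myb are lowest there. The 10 genes were chosen after their values were seen.

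Of 10 tested genes of single-positive maturation, 6 were lower in stage 1 NKT than in CD4SP and 0 higher (4.08% and 10.8% of all genes), while Luxoid stage 1 NKT was lower in 2 and higher in 1 (5.51% and 11.3%). Between the NKT groups 2 were higher in Luxoid, Cd69 and Ifngr1, against 0.901% of all genes. Cd69 was also among the 6, and the counts are not read as a degree of maturation. Cd69, an early activation and retention receptor, read 283 and 277 in stage 1 NKT, 1055, 1040 and 1429 in Luxoid stage 1 NKT and 883 and 1066 in CD4SP. It was 4.15-fold higher in Luxoid than in PLZF-sufficient stage 1 NKT (log2 2.05 ± 0.18, limma adjusted p = 0.000955). Ccr7, a chemokine receptor of mature thymocytes, was 2.21-fold lower in stage 1 NKT and 2.08-fold lower in Luxoid stage 1 NKT than in CD4SP (limma adjusted p = 0.00141 and 0.00103). Ifngr1, an interferon-gamma receptor chain, was 3.23-fold higher in Luxoid than in PLZF-sufficient stage 1 NKT (limma adjusted p = 0.00126). Across alternatives the count lower in stage 1 NKT went from 2 to 7.

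Around Cd1d1, 10 genes of CD1d presentation and of the interactions that select NKT cells were tested. In each comparison with CD4SP, 2 were higher and 2 lower. The shares of all genes were 10.8% and 4.08% for stage 1 NKT and 11.3% and 5.51% for Luxoid stage 1 NKT. With the replicate block 3 were lower in stage 1 NKT. Slamf6 and Sh2d1a, the receptor and adaptor of SLAM signals during selection, were 1.69-fold and 1.91-fold higher in stage 1 NKT (limma adjusted p = 0.0111 and 0.0308) and 1.97-fold and 1.84-fold higher in Luxoid stage 1 NKT (0.00165 and 0.0250). Slamf1, a further SLAM receptor, was 4.34-fold and 4.38-fold lower (0.000253 and 0.000117). Cd1d2 read 118 to 162 in the Luxoid arrays and 251 and 277 in CD4SP, 1.84-fold lower in Luxoid stage 1 NKT (limma adjusted p = 0.00835, and 0.0811 without CD4SP array 2). B2m, the light chain that pairs with CD1d, had log2 differences of -0.06 and -0.05 and passed no test. The Sh2d1a calls were lost without either CD4SP array, over every probe set, and without array 1 of the NKT group compared (up to 0.205), and the Slamf6 call in stage 1 NKT was lost without any 1 of its own or the CD4SP arrays (up to 0.0798).

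Few partners of the remaining members were called. Over all genes tested, 14.9% were called in stage 1 NKT against CD4SP and 16.8% in Luxoid stage 1 NKT against CD4SP. Of 6 tested Themis partners, Vav1 was 1.48-fold lower in stage 1 NKT (limma adjusted p = 0.0367, lost without any 1 of the stage 1 NKT or CD4SP arrays, up to 0.171) and Lat was 1.43-fold lower in Luxoid stage 1 NKT (0.0335, lost without any 1 of the 7 arrays, up to 0.183). Grb2, the adaptor that Themis binds, passed no test. Of 10 tested subunits of the CTLH ligase around Rmnd5a, limma called 0 in all 3 comparisons, with 1 at an unadjusted p under 0.05 in stage 1 NKT against CD4SP and 0 in the others, and 1 was lower in each comparison with CD4SP when the replicate number was a block. The 5 tested genes listed beside Arpp21 were R3hdm1, R3hdm2, R3hdm4, Ensa and Arpp19, and they are not read as 1 family. Of these, 0 were called, with 0 at an unadjusted p under 0.05, and their log2 differences lay between -0.25 and 0.31.

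**Figure D5:**
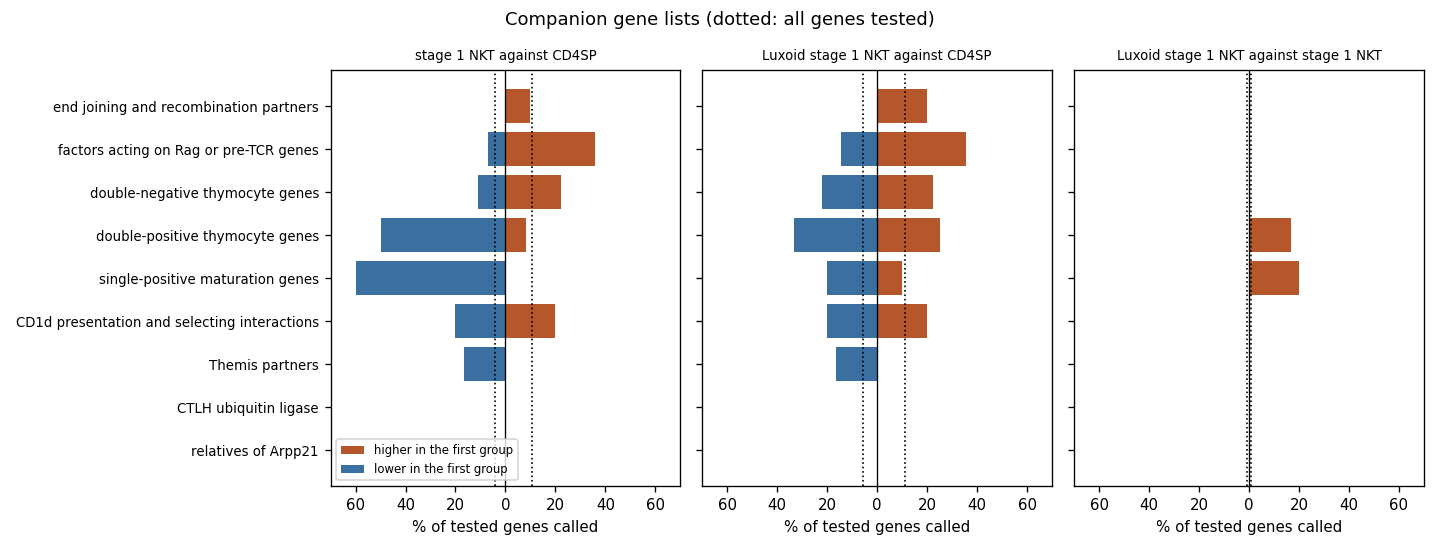
Share of the tested genes of each of the 9 companion lists (y axis) that was called higher (right) or lower (left) in the first group, in % of tested genes (x axis), for the 3 comparisons. Dotted lines give the same shares over all genes tested, 10.8% higher and 4.08% lower for stage 1 NKT against CD4SP. The list of the CTLH ligase and the list labelled relatives of Arpp21 have no bar.

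The summed level of the 5 measured double-positive markers (Cd8a, Cd8b1, Ccr9, Aqp11 and Mns1) ranged from 4274 to 4319 in stage 1 NKT, 4235 to 4846 in Luxoid stage 1 NKT and 1601 to 2101 in CD4SP. Ccr9 alone read 3341 and 3610 in stage 1 NKT, 3213 to 3772 in Luxoid stage 1 NKT and 1198 and 869 in CD4SP. It makes up most of the sum, which is therefore no measure of double-positive cells. The markers differed in direction, with Ccr9 lower and Cd8b1 higher in CD4SP than in both NKT groups. Aqp11 was near background in all 3 groups and Cd8b1 in stage 1 NKT. The 8 measured B cell markers summed to 738 to 785, 670 to 933 and 634 to 677, with Ms4a1 and Ebf1 near background throughout. Within that list Cd79b was at least 2.09-fold and at least 2.04-fold higher in the NKT groups than in CD4SP (limma adjusted p = 0.00548 and 0.00314), and Cd79a was 1.77-fold and 1.68-fold lower (0.0408 and 0.0378). The Cd79b call in stage 1 NKT was lost without stage 1 NKT array 1 or CD4SP array 2 (0.0568 at most), and the Cd79a calls were lost without either stage 1 NKT array, without either CD4SP array and, in Luxoid, without Luxoid array 3, and also with no intensity filter (0.220 at most). Of 6 myeloid or dendritic markers, Lyz2, Csf1r, Cd14 and Itgax were near background in all groups, as were the 3 measured erythroid markers and, of 5 epithelial markers, Krt8, Foxn1 and Psmb11. Cd79b read 66.2 and 43.0 in CD4SP and entered the test only through the NKT groups, where it is high. Of the gamma delta T markers, Sox13 read 199 and 348 in stage 1 NKT, 111, 64.9 and 115 in Luxoid stage 1 NKT and 48.6 and 41.8 in CD4SP. Sox13 likewise entered the test only through the NKT groups. Against CD4SP it was higher by at least 3.21-fold in stage 1 NKT (limma adjusted p = 0.00158) and by at least 1.14-fold in Luxoid stage 1 NKT (0.0448), the latter call being lost in 9 of 18 alternatives, among them without Luxoid array 1 or 3 and without either CD4SP array (0.246 at most). Of the handling stress genes, Jun read 111 and 735 in stage 1 NKT, 62.7, 561 and 479 in Luxoid stage 1 NKT and at most 88.1 in CD4SP, low in array 1 of both NKT groups, and it passed no test. Egr1 read 1716 and 1868 in stage 1 NKT, 2707, 2559 and 2329 in Luxoid stage 1 NKT and 2666 and 2494 in CD4SP. It was called lower in stage 1 NKT than in CD4SP (log2 -0.53, limma adjusted p = 0.0471), a call lost in 11 of 19 alternatives. The 6 measured T cell markers summed to 27850 to 28228, 28365 to 31721 and 32303 to 33638. The part of these other cells in the levels of Dntt and Cd24a in CD4SP was not tested.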

How the data were processed

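Per the submitters' processing notes, the authors made the deposited intensity values with RMA in Affymetrix Expression Console, without a version in those notes. The deposited table holds linear intensities of 45037 probe sets in 7 arrays. RMA corrects background, normalizes arrays by quantiles and summarises probes, which compresses differences between dim probe sets. Per the labels' protocols, RNA of sorted cells was amplified and hybridised as biotin-labelled cDNA.

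Here log2 was taken. Genes were named from the platform annotation (34945 probe sets with 1 symbol, 932 with several and 9160 not listed), and the probe set of highest mean stood for a gene. All 10 members matched RefSeq (GRCm38.p6) by gene ID. Genes at 82.0 or above in 2 or more arrays were fitted with limma 3.58.1 in R 4.3.3, with 1 mean per group over all 7 arrays (4 residual and 4.49 prior degrees of freedom), and p-values were adjusted over all genes tested. The script was tested on simulated data.

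The named genes are the 10 members with every probe set, up to 4 called genes of each companion list and comparison by smallest adjusted p, other genes of a list of 12 or fewer where a role is described, cell type markers, and the 3 genes most correlated with each member that varied over 1 log2 unit. Members and lists were chosen with earlier results of these data known. The labels call the arrays biological replicates.

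Arrays with the same replicate number deviated together from their group means (r from 0.334 to 0.491 over all genes and 0.259 to 0.439 over autosomal ones, mirrored in groups of 2). Y-linked genes averaged 3.13 to 3.32 on the log2 scale in arrays numbered 1 and 8.25 to 9.57 in the others. The numbers were therefore taken to pair the arrays, and a fit with the number as a block was run. Number 1 and a low Y-linked level mark the same arrays, so pairing and Y-linked level cannot be told apart there. The block and the Y-linked covariate thus hold largely the same split and are not separate checks. The main fit leaves the pairing by number out. Luxoid array 3 is the only array with its number, so the block fits it exactly. It then adds nothing to the differences or their spread, and the block fit rests on the other arrays. Other alternatives were the filter, the choice of probe set, 32 added before log2, 2 normalizations, an intensity trend, array weights, only the groups compared, a Y-linked covariate and each array left out.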

Additional observations from a re-analysis of the deposited data

How the results depend on the processing

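The calls of Dntt and Cd24a against CD4SP held in every alternative that tested them, with limma adjusted p from 8.90e-05 to 0.0180 for Dntt in stage 1 NKT (19 alternatives), 0.000504 to 0.0259 in Luxoid stage 1 NKT, and 2.93e-05 to 0.0155 and 0.000201 to 0.0280 for Cd24a (18). For Cd24a this is no check of the result. Its NKT cells were sorted as CD24low, and it passed the filter only through CD4SP, where it is high. Of 477 recomputed differences of members, 11 changed sign, 6 of tested and 5 of untested members, and 0 changed a call among tested members. With the 75th percentile filter (307), which leaves Cd24a untested, 1 member, Dntt, was called in each comparison with CD4SP. Under that filter Dntt entered the test only through its CD4SP arrays, where it is high. The 6 sign changes of tested members were in differences that were not called either way. With 1 array left out, Cd1d1 between the NKT groups ran from -0.20 to 0.0072 (the latter without Luxoid replicate 2). Themis in Luxoid against CD4SP ran from -0.094 to 0.020, above 0 without Luxoid replicate 2 or CD4SP replicate 1 (0.0078), and was 0.0041 with median centring. Rmnd5a ran from -0.032 to 0.85 between the NKT groups and from -0.52 to 0.37 in stage 1 NKT against CD4SP, with its sign turned without stage 1 NKT replicate 2. The cause was not tested. Over every probe set, 2892 of 45037 probe sets were called in Luxoid against CD4SP, in place of 1831 of 10874 genes. With the replicate block 2616 genes were called in stage 1 NKT against CD4SP, of which 1618 are among the 1621. The block changed no call of a member. With 1 array left out, 866 to 1726 genes were called in Luxoid against CD4SP, 643 to 1846 in stage 1 NKT against CD4SP and 55 to 178 between the NKT groups. The lone array of a group was then assumed to vary like the other groups. Of the untested members, Arpp21 ran from -0.42 to 0.84 in stage 1 NKT against CD4SP and from 0.13 to 1.39 in Luxoid against CD4SP with 1 CD4SP array left out. Ptcra changed sign between the NKT groups (-0.18) and in stage 1 NKT against CD4SP (0.080) without stage 1 NKT replicate 1. Rag2 did so in Luxoid against CD4SP, to 0.018 without CD4SP replicate 1 and 0.011 with quantile normalization repeated. With 32 added, Cd24a moved to -2.57 and -2.14 against CD4SP. Signal near 82.0 limits what can be read for Rag1, Rag2, Ptcra, Arpp21 and Endou.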
